A study of Mus musculus with 13 samples.

Results

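Organoids and sorted intestinal stem cells (ISCs) in which Apc was deleted with the same Cre driver were compared by RNA-seq, to ask how far each shows an Apc-null state. The members were the 2 libraries titled as Sec-Cre Apc-null organoids and the 2 titled as Sec-Cre Apc-null ISCs from the ileum, 4 of the 13 libraries of the series. Sec-Cre organoids carried Atoh1CreERT2, Apcfl/fl and Rosa26tdTomato and were collected whole. They grew from ileal crypts that the sample labels place 10 days after induction, whereas the design text counts 10 days from plating, so the age of the cultures is not settled. Sec-Cre ISCs carried Atoh1CreERT2, Apcfl/fl, Lgr5DTR-GFP and Rosa26tdTomato and were isolated from ileum by flow cytometry 21 days after induction. The controls were WT organoids (2 libraries, labelled WT with no alleles listed, 10 days) and WT ileal ISCs (2 libraries, Apcfl/fl, Lgr5DTR-GFP and Rosa26tdTomato without a Cre, 21 days). All 4 groups came from adult mice given 2 doses of 1 mg tamoxifen, so the controls share the drug, and the WT ISCs also share the floxed Apc allele. Culture, days since induction, whole material against sorted cells and the dissociation for sorting all change together between organoids and ISCs and cannot be told apart here.

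Apc scaffolds the cytoplasmic complex that marks beta-catenin for destruction, and without it beta-catenin enters the nucleus and drives TCF/LEF target genes. In the small intestine this pathway maintains the crypt base, and its targets include its own inhibitors, such as Axin2, Notum, Nkd1, Rnf43 and Znrf3. Atoh1 is the transcription factor of the secretory lineage, so a Cre driven from Atoh1 recombines in secretory cells and their precursors. The route by which sorted stem cells came to carry the deletion was not tested. Organoids grown from crypts are epithelial cultures that hold stem cells and, in WT, differentiated cells as well.

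The 2 Sec-Cre ISC libraries stood apart from the others and from each other. They held 11524335 and 45516228 gene counts, against 20941447 and 22182702 in Sec-Cre organoids, 13631423 and 21306261 in WT organoids, and 15573041 and 18609373 in WT ISCs. Unmapped reads were 57.0% and 35.8% of their reads, against 2.58% to 13.9% in the other 6 libraries. The ribosomal precursor Rn45s took 10.4% and 2.05% of their counts, against at most 1.67% in the other 6, and Lars2 took 8.60% and 1.66%, against at most 0.151%. Paneth genes took 34.8% of the counts of replicate 1 and 1.09% of those of replicate 2, against 2.62% and 2.69% in WT ISCs, and results that rest on replicate 1 are therefore also given without it. Counts were scaled by TMM, which sets the bulk of genes level between libraries, and levels below are CPM, the counts of a gene in proportion to that scaled library size, so their sums differ between libraries.

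Markers of each cell type were checked against the labelled material. Epithelial markers (Epcam, Krt8, Krt18, Krt19, Cdh1 and Vil1) summed to 6399 and 6154 CPM in Sec-Cre organoids, 9938 and 17700 CPM in Sec-Cre ISCs, and 7868 to 10420 CPM in the WT libraries, and none of them was at 0. Crypt-base stem cell markers (Lgr5, Olfm4, Ascl2, Smoc2, Axin2 and Slc12a2) summed to 2135 and 2556 CPM in Sec-Cre organoids and 1057 and 1908 CPM in Sec-Cre ISCs, against 3689 and 6908 CPM in WT organoids and 4750 and 5079 CPM in WT ISCs. The libraries labelled Sec-Cre ISC thus had the lowest stem cell marker sums of the 8. Lgr5 is part of these sums, and both ISC groups carry a DTR-GFP cassette in its locus. Its part in the sums is therefore not comparable between organoids and ISCs. The lower sums in Sec-Cre than in WT organoids rested mostly on Olfm4, whereas Axin2 was higher in Sec-Cre organoids. The levels of both genes are given below. Enterocyte markers (Sis, Apoa1, Apoa4, Alpi, Fabp1 and Fabp2) summed to 11.5 and 11.3 CPM in Sec-Cre organoids and 38150 and 17440 CPM in Sec-Cre ISCs, against 2491 and 1548 CPM in WT organoids and 295 and 312 CPM in WT ISCs. No enterocyte marker was at 0 in either Sec-Cre ISC library. Immune markers summed to 12.7 and 30.4 CPM in Sec-Cre ISCs and to at most 10.5 CPM elsewhere, and 4 of the 6 were at 0 in each Sec-Cre organoid library. The part of enterocyte and Paneth cell RNA in the results below was not tested, and in bulk RNA fewer cells of a type and less RNA per cell cannot be told apart.

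**Figure D1:**
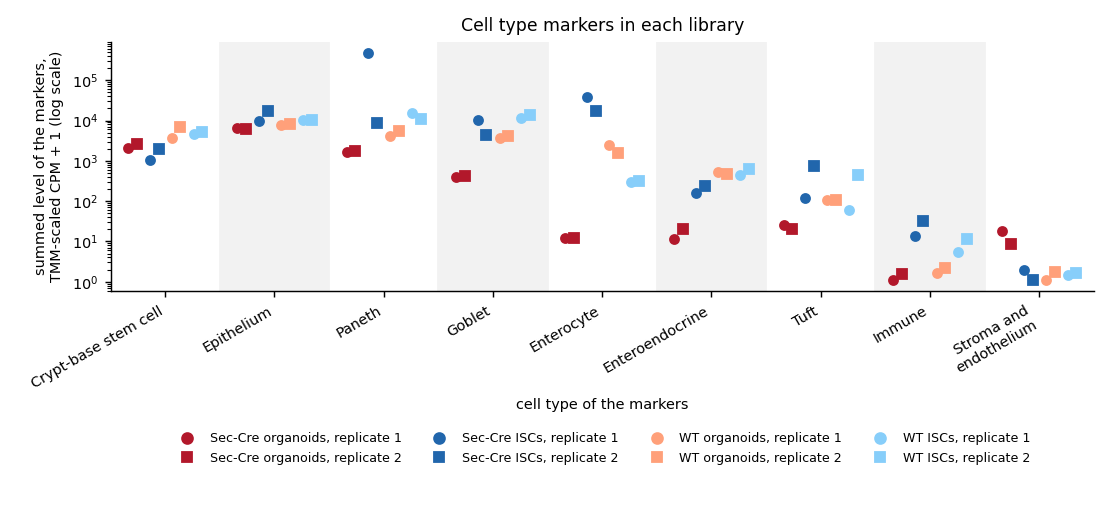
Summed level of 6 markers for each of 9 cell types in every library (y axis, TMM-scaled CPM + 1, log scale), with circles for replicate 1 and squares for replicate 2 of each group. Enterocyte markers lie at 11.5 and 11.3 CPM in Sec-Cre organoids and at 38150 and 17440 CPM in Sec-Cre ISCs, and Paneth markers reach 474900 CPM in Sec-Cre ISC replicate 1 alone.

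Promoter sequences of genes from both ends of the comparison are shown with the words searched in them, as RefSeq gives the starts on GRCm38.p6. The TCF/LEF word was CTTTGAT, which reads ATCAAAG on the other strand. The word of HNF4, a nuclear receptor of enterocytes, was CAAAGTCCA, which reads TGGACTTTG on the other strand. In the 250 bases before a listed start, the TCF/LEF word stood in 3 of the 19 Wnt targets that the table holds (15.8%), in 1 of 29 enterocyte genes (3.45%) and in 3.72% of all 27025 genes, counting any listed start of a gene. The HNF4 word stood in 3 of 29 enterocyte genes (10.3%), in 0 of 19 Wnt targets and in 0.451% of all genes. Both strands were searched, the words share the letters CAAAG, and a match describes letters only. Below, capitals mark the word. Sp5 and Tnfrsf19 are shown as Wnt targets that hold it (Sp5 at chr2:70474673-70474922, plus strand, and Tnfrsf19 at the second start listed, chr14:61037988-61038237, minus strand), Axin2 as the pathway's standard readout that does not (chr11:108920099-108920348, plus strand), and Alpi, the alkaline phosphatase of the enterocyte brush border, for HNF4 (chr1:87101607-87101856, minus strand).
Sp5: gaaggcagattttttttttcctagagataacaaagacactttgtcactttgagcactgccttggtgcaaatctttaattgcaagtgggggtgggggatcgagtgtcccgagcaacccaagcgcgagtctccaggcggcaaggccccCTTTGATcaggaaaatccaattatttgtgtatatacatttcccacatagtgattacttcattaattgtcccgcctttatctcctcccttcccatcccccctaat
Tnfrsf19: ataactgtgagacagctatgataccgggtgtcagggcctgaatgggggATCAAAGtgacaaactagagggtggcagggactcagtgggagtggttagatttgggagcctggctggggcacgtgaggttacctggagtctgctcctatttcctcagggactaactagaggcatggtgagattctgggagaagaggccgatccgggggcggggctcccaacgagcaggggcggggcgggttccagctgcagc
Axin2: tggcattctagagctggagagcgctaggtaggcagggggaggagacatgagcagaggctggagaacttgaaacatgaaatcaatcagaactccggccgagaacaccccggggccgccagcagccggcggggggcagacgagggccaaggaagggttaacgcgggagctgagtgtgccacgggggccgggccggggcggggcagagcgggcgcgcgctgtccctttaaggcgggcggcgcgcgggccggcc
Alpi: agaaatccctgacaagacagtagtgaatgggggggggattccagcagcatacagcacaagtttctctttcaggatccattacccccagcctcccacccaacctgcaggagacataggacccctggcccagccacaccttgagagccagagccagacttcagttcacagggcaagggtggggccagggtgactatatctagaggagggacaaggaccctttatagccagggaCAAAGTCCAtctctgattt

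Sec-Cre organoids differed from Sec-Cre ISCs over much of the transcriptome. By the edgeR quasi-likelihood test with Benjamini-Hochberg adjustment, 3280 of 14368 genes were higher in organoids (22.8%) and 3427 were lower (23.9%), 46.7% in all, with a median log2 fold change over all genes of 0.04. WT organoids against WT ISCs gave 170 higher (1.18%) and 169 lower genes (1.18%), 2.36% in all, in the same fit of 8 libraries. A difference between these comparisons, gene by gene, is the interaction of genotype and material, and it was called for 1568 genes in the positive direction (10.9%) and 1970 in the negative (13.7%), 24.6% in all. A positive value means that the organoid minus ISC difference was larger in Sec-Cre than in WT. With library totals alone in place of TMM the median gene of the Sec-Cre comparison moved to 0.98 and the calls became 4204 higher and 1137 lower, so changes are read relative to the bulk of genes. The labels do not say whether replicates came from separate mice, and p-values then measure only the spread between these samples. A fit without a library leaves its group with 1 sample, which is assumed to vary like the other groups.

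The genes with the largest fitted rises in organoids, among those whose call stood without Sec-Cre ISC replicate 1, were at or near 0 in Sec-Cre ISCs. Irs1, an adaptor of insulin and IGF receptors, was at 48.7 and 43.1 CPM in Sec-Cre organoids and had no count in either Sec-Cre ISC library, against 2.96 and 1.72 CPM in WT organoids and 4.33 and 3.08 CPM in WT ISCs. Both Sec-Cre organoid values lie above all others, and the level was at least 726-fold higher than in Sec-Cre ISCs, taking 3 counts over that group as the floor (adjusted p = 0.000112). Col4a2, a basement membrane collagen chain whose annotated gene overlaps Col4a1 on the other strand, so that reads of the overlap cannot be told apart, was at 58.8 and 87.4 CPM against 0 in both Sec-Cre ISC libraries, which is at least 1166-fold higher (adjusted p = 0.000374). Ptn, a secreted heparin-binding growth factor, was at least 998-fold higher, and it had no count in the WT organoids or WT ISCs either. The serpin Serpinb11 was at least 576-fold, the cytochrome P450 Cyp1b1 at least 513-fold and the secreted glycoprotein Stc2 at least 176-fold higher. Krt4, a keratin of stratified epithelia, was at 124 and 88.8 CPM in Sec-Cre organoids and at 0 and 0.0694 CPM in Sec-Cre ISCs, a ratio of 1678 with a 95% counting interval of 574 to 8137. Enah, an actin regulator, had a ratio of 1696 (580 to 8224) and the junction protein Amotl1 one of 1244 (425 to 6034). The guidance receptor Robo1, with 1 count over both Sec-Cre ISC libraries, had a ratio of 5255 (943 to 207600). Ptn, Serpinb11 and Robo1 had at most 1 count in each of the other groups, and Cyp1b1 at most 7. These genes passed the filter on low counts only through the Sec-Cre organoids. Their direction was therefore fixed in advance, and their folds give levels and are not a test. Stc2 was not higher than in WT organoids: it was at 12.1 and 10.2 CPM in Sec-Cre organoids, against 84.6 and 48.9 CPM in WT organoids.

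The genes with the largest fitted falls in organoids included apolipoproteins, transporters and enzymes. Apoa4, an apolipoprotein of chylomicrons at chromosome 9, 46240696 to 46243459, was without a count in Sec-Cre organoids and stood at 3334 and 2731 CPM in Sec-Cre ISCs, against 275 and 125 CPM in WT organoids and 1.02 and 0.712 CPM in WT ISCs. It was at least 51910-fold lower in Sec-Cre organoids than in Sec-Cre ISCs (adjusted p = 5.14e-05), and WT organoids and WT ISCs stood in the opposite order. Fabp1, a fatty acid binding protein, had 1 count over both Sec-Cre organoid libraries and was at 5976 and 2343 CPM in Sec-Cre ISCs, a ratio of 149500 lower (95% counting interval 26820 to 5903000). Apoa1 and Apoc3, further apolipoproteins, were at most 0.415 CPM in Sec-Cre organoids and at least 219 CPM in Sec-Cre ISCs. The citrate transporter Slc13a2 (adjusted p = 6.61e-05), the calcineurin-like Chp2 (2.27e-05), the aldo-keto reductase Akr1b7 (0.00017), the sphingomyelinase Enpp7 (0.00145) and the protease Prss30 (0.000126) were all without counts in Sec-Cre organoids. They were at least 6374-fold lower for Slc13a2, 3648-fold for Chp2, 1854-fold for Akr1b7, 2848-fold for Enpp7 and 1880-fold for Prss30. Slc13a2 overlaps an antisense gene, and the kit does not mark strand. Defa24, a Paneth defensin, was at 422 and 1.60 CPM in Sec-Cre ISC replicates 1 and 2, so its place in this list rests on replicate 1. Its transcript also shares 31-base words with other defensins over more than 20% of its length, so its count is uncertain.

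Wnt/beta-catenin targets were higher in Sec-Cre organoids than in Sec-Cre ISCs. Of 30 listed genes 28 were tested, and 22 were higher and 0 lower, with a median log2 fold change of 2.32 beside 0.04 for all genes. Without Sec-Cre ISC replicate 1 the counts were 24 and 0, and without replicate 2 they were 21 and 3, where Mmp7, Bambi and Sox9 became lower. The 6 that missed the threshold were Ascl2, Lef1, Sox9, Myc, Bambi and Mmp7. Relative to all genes, the median was 2.27 with RLE factors and 2.48 with library totals alone.

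Feedback inhibitors of the pathway were among them. Axin2, a scaffold of the destruction complex (chromosome 11, 108920349 to 108950783), was at 723 and 691 CPM in Sec-Cre organoids and 74.2 and 34.9 CPM in Sec-Cre ISCs, against 203 and 362 CPM in WT organoids and 303 and 267 CPM in WT ISCs. Both Sec-Cre organoid libraries lie above, and both Sec-Cre ISC libraries below, every WT library (organoids over ISCs, log2 fold change 3.71 ± 0.44 SE, adjusted p = 0.000567). Notum, a secreted enzyme that inactivates Wnt ligands, was at 402 and 208 CPM in Sec-Cre organoids and 14.1 and 7.27 CPM in Sec-Cre ISCs, against 0.967 and 0.205 CPM in WT organoids and 0.797 and 0.949 CPM in WT ISCs. Both Sec-Cre groups lie above both WT groups for Notum, and organoids exceeded ISCs by 4.90 ± 0.60 (adjusted p = 0.000639). Nkd1, an inhibitor acting on Dishevelled, was at 550 and 391 CPM in Sec-Cre organoids and 40.2 and 10.3 CPM in Sec-Cre ISCs, against 0.902 and 2.74 CPM in WT organoids and 8.71 and 6.64 CPM in WT ISCs. For Nkd1 the Sec-Cre ISCs are again above their own WT in each library, but far below the Sec-Cre organoids (4.28 ± 0.71, adjusted p = 0.00244). Rnf43, a ubiquitin ligase that removes Frizzled receptors, was at 359 and 371 CPM in Sec-Cre organoids and 56.4 and 77.1 CPM in Sec-Cre ISCs, against 172 and 187 CPM in WT organoids and 131 and 104 CPM in WT ISCs, and the Sec-Cre ISCs are lowest (2.44 ± 0.23, adjusted p = 0.000239).

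**Figure D2:**
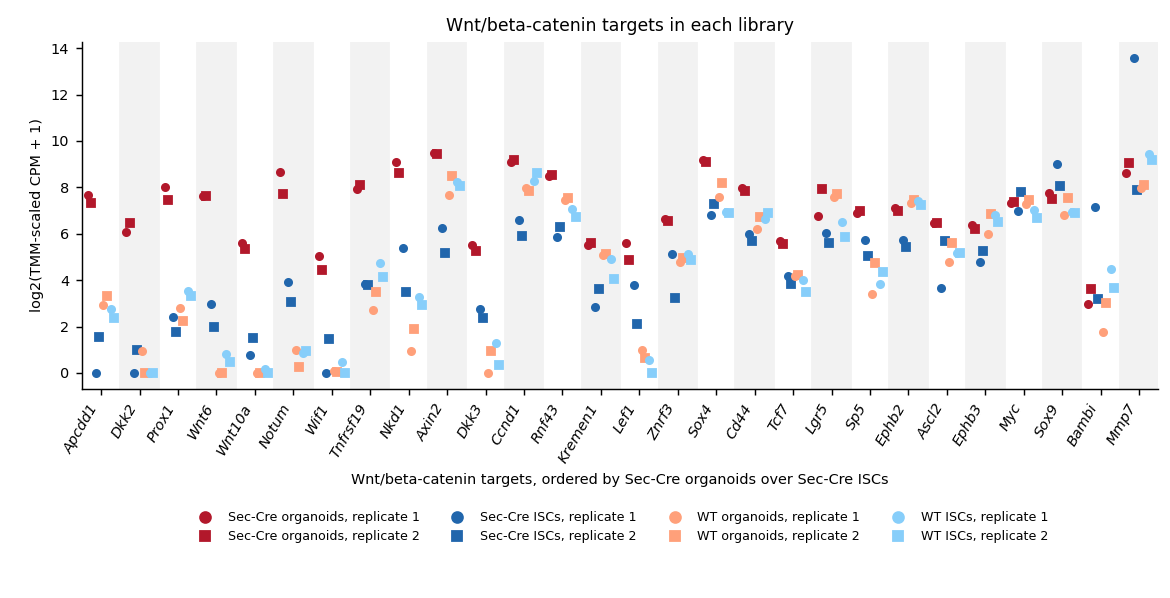
Level of the 28 tested Wnt/beta-catenin targets in each of the 8 libraries (y axis, log2 of TMM-scaled CPM + 1), with circles for replicate 1 and squares for replicate 2. Genes are ordered by the fold change of Sec-Cre organoids over Sec-Cre ISCs; for Axin2 the Sec-Cre organoids at 723 and 691 CPM are the highest and the Sec-Cre ISCs at 74.2 and 34.9 CPM the lowest, and Mmp7 is at 12330 CPM in Sec-Cre ISC replicate 1.

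The Wnt ligands and the factors Prox1 and Sp5 were called higher in Sec-Cre organoids than in Sec-Cre ISCs. Wnt6, a Wnt ligand, was at 198 and 194 CPM in Sec-Cre organoids and 6.94 and 2.99 CPM in Sec-Cre ISCs, against 0 counts in WT organoids and 0.740 and 0.380 CPM in WT ISCs (5.46 ± 0.48, adjusted p = 0.000306). Wnt10a was at 47.6 and 39.6 CPM in Sec-Cre organoids and 0.694 and 1.81 CPM in Sec-Cre ISCs, and was at most 0.114 CPM in the WT libraries. Both ligands were called higher than in their own WT in both materials. Prox1, a homeobox factor found in intestinal adenomas, was at 255 and 174 CPM in Sec-Cre organoids and 4.39 and 2.41 CPM in Sec-Cre ISCs, against 6.06 and 3.77 CPM in WT organoids and 10.4 and 9.02 CPM in WT ISCs, and had the smallest adjusted p of the list (6.12 ± 0.43, adjusted p = 8.21e-05). Sp5, which represses other Wnt targets, was at 119 and 124 CPM in Sec-Cre organoids and 52.0 and 32.3 CPM in Sec-Cre ISCs, against 9.47 and 25.3 CPM in WT organoids and 13.3 and 19.1 CPM in WT ISCs. All Sec-Cre libraries lie above all WT libraries, and organoids exceeded ISCs (1.54 ± 0.46, adjusted p = 0.0277). Lef1, a partner of beta-catenin on DNA, was at 47.1 and 27.8 CPM in Sec-Cre organoids and 12.7 and 3.26 CPM in Sec-Cre ISCs, against at most 0.967 CPM in the WT libraries, and the difference between the Sec-Cre groups missed the threshold (adjusted p = 0.0662).

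Receptors and the cyclin of the list were lower in Sec-Cre ISCs than in Sec-Cre organoids. Tnfrsf19, a TNF receptor of stem cells, was at 240 and 277 CPM in Sec-Cre organoids and 13.2 and 12.8 CPM in Sec-Cre ISCs, against 5.54 and 10.1 CPM in WT organoids and 25.8 and 16.5 CPM in WT ISCs. Ccnd1, the D-type cyclin, was at 552 and 581 CPM in Sec-Cre organoids and 95.8 and 59.2 CPM in Sec-Cre ISCs, against 249 and 229 CPM in WT organoids and 306 and 393 CPM in WT ISCs. Cd44, a hyaluronan receptor, was at 246 and 225 CPM in Sec-Cre organoids and 62.9 and 49.8 CPM in Sec-Cre ISCs, against 72.8 and 105 CPM in WT organoids and 96.9 and 118 CPM in WT ISCs. For each of these the Sec-Cre organoids hold the highest values. Ephb2, which positions cells along the crypt, was not highest in Sec-Cre organoids: it was at 137 and 126 CPM in Sec-Cre organoids and 52.0 and 42.7 CPM in Sec-Cre ISCs, against 161 and 172 CPM in WT organoids and 171 and 149 CPM in WT ISCs. Lgr5, the stem cell receptor, was at 109 and 246 CPM in Sec-Cre organoids and 65.2 and 47.9 CPM in Sec-Cre ISCs, against 188 and 208 CPM in WT organoids and 89.8 and 57.5 CPM in WT ISCs, so that Sec-Cre and WT overlap within organoids. Both ISC groups carry a DTR-GFP cassette in the Lgr5 locus, which the organoid labels do not list, so the Lgr5 level is not comparable between materials. The same holds for its part in list counts that compare organoids with ISCs. Myc, a growth regulator, ranged from 99.9 to 222 CPM over the 8 libraries, with Sec-Cre ISC replicate 2 highest and no separation by group.

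Apc itself, read over the whole gene, was at 163 and 179 CPM in Sec-Cre organoids and 101 and 44.5 CPM in Sec-Cre ISCs, against 143 and 128 CPM in WT organoids and 105 and 116 CPM in WT ISCs. A floxed allele loses only part of the gene, so these counts do not check the genotype. The higher level in organoids (1.25 ± 0.35, adjusted p = 0.0218) was not called in a fit of the compared groups alone (adjusted p = 0.0904). Ctnnb1, which encodes beta-catenin and was added after its values were seen, was at 1552 and 1376 CPM in Sec-Cre organoids and 350 and 479 CPM in Sec-Cre ISCs, against 897 to 1078 CPM in the WT libraries. Atoh1, whose promoter drives the Cre, was at 9.69 and 10.1 CPM in Sec-Cre organoids and 44.6 and 30.3 CPM in Sec-Cre ISCs, against 36.4 and 39.0 CPM in WT organoids and 94.3 and 89.0 CPM in WT ISCs. In each material both Sec-Cre libraries are below their WT (adjusted p = 0.00273 in organoids and 0.00706 in ISCs).

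Set against their own WT, the Wnt targets moved together in organoids and in both directions in ISCs. In Sec-Cre against WT organoids 17 of 28 rose and 0 fell (background 4.93% higher and 7.4% lower, 12.3% in all), with a median log2 fold change of 1.45 beside 0.01 for all genes. In Sec-Cre against WT ISCs 5 rose and 8 fell (background 14.4% higher and 12.7% lower, 27.1% in all), with a median of 0.20 beside 0.00. The 5 were Notum, Wnt6, Wnt10a, Lef1 and Sox9, of which the first 4 also rose in organoids. The 8 were Axin2, Rnf43, Kremen1, Prox1, Ephb2, Ephb3, Cd44 and Ccnd1, and 4 of these rose in organoids. The ISC libraries varied more than the organoids (biological coefficient of variation 0.426 and 0.22 in separate fits), so fitting each material alone changed the counts, to 22 higher and 0 lower in organoids and to 1 higher (Notum) and 4 lower in ISCs (Axin2, Ephb2, Ephb3 and Ccnd1). Without Sec-Cre ISC replicate 1 the ISC counts were 7 higher and 10 lower. The interaction was called for 14 of the 28 genes, all positive, beside 10.9% of all genes.

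Library by library, the median Wnt target was 1.49 and 1.34 above the WT organoid mean in the Sec-Cre organoids, and 0.07 and 0.28 below the WT ISC mean in the Sec-Cre ISCs, on the log2(CPM + 1) scale. The Sec-Cre organoids are alike and lie above their WT. The WT ISC libraries themselves lie at 0.13 and -0.14, so Sec-Cre ISC replicate 1 is within their spread. Enterocyte genes moved the other way, with medians 3.52 and 3.24 below WT in the Sec-Cre organoids and 3.56 and 3.48 above WT in the Sec-Cre ISCs. Cell cycle genes had medians of 0.07 and 0.18 in the Sec-Cre organoids, and they were 1.84 and 0.82 below WT in the Sec-Cre ISCs.

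Over all 14368 genes, the effect of the Sec-Cre genotype in organoids and that in ISCs had a Pearson correlation of -0.06 and a Spearman correlation of -0.11. This is across genes, which are not independent replicates, and the 2 effects share no library. Of the genes that rose in Sec-Cre organoids, 110 also rose in Sec-Cre ISCs (15.5% of the 709 and 5.33% of the 2065), and 92 fell there (13% and 5.02%), beside 14.4% of all genes that rose and 12.7% that fell in ISCs. Of the genes that fell in Sec-Cre organoids, 107 also fell in Sec-Cre ISCs (10.1% of 1063 and 5.84% of 1831), while 429 rose there (40.4% of 1063 and 20.8% of 2065). The group that fell in organoids and rose in ISCs was the largest of the 4, and it held 28 of the 34 enterocyte genes. It was also the largest with the materials fitted alone (363 genes) and without Sec-Cre ISC replicate 1 (818 genes).

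**Figure D3:**
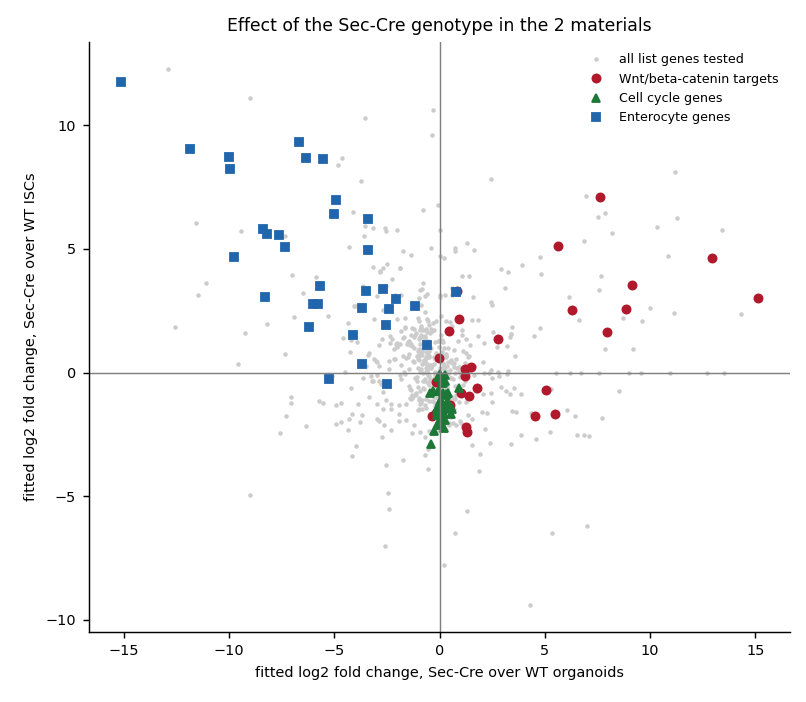
Fitted log2 fold change of Sec-Cre over WT in organoids (x axis) against that in ISCs (y axis) for the tested genes of all lists (grey), with Wnt/beta-catenin targets, cell cycle genes and enterocyte genes marked. Enterocyte genes lie mostly low in organoids and high in ISCs, Wnt targets lie mostly to the right, and cell cycle genes lie near 0 in organoids and below 0 in ISCs; far points of genes without a count in a group depend on the prior count of the fit.

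Crypt-base stem cell genes were mixed. Of 28 tested, 14 were higher and 3 lower in Sec-Cre organoids than in Sec-Cre ISCs, with a median of 1.03. In Sec-Cre against WT organoids 5 rose and 5 fell, and in Sec-Cre against WT ISCs 2 rose and 8 fell, or 0 and 1 with the ISC groups fitted alone (14.4% of all genes rose and 12.7% fell in the 8-library fit). Mex3a, an RNA-binding protein of stem cells named here after its values were seen, was at 107 and 89.2 CPM in Sec-Cre organoids and 6.71 and 1.88 CPM in Sec-Cre ISCs, against 19.5 and 22.2 CPM in WT organoids and 10.9 and 11.9 CPM in WT ISCs. Olfm4, a secreted stem cell glycoprotein and a marker fixed for the check, was at 76.8 and 113 CPM in Sec-Cre organoids and 284 and 1160 CPM in Sec-Cre ISCs, against 1470 and 4276 CPM in WT organoids and 2761 and 3380 CPM in WT ISCs. Olfm4 was lower in Sec-Cre organoids than in Sec-Cre ISCs (adjusted p = 0.0161) and than in WT organoids (adjusted p = 0.0101). Vdr, the vitamin D receptor, was at 29.5 and 21.0 CPM in Sec-Cre organoids and 402 and 661 CPM in Sec-Cre ISCs, against 296 and 268 CPM in WT organoids and 475 and 401 CPM in WT ISCs (-4.40 ± 0.34, adjusted p = 0.000111).

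Genes of the fetal and regenerating epithelium, a program linked to YAP, were higher in Sec-Cre organoids. Of 28, 22 were higher and 2 lower, with a median of 2.68, beside 22.8% and 23.9% of all genes. WT organoids against WT ISCs gave 7 higher and 1 lower, with a median of 0.68, beside 1.18% of all genes each way. Against their own WT, 18 rose and 1 fell in Sec-Cre organoids, beside 4.93% and 7.4% of all genes. In Sec-Cre ISCs 10 rose and 3 fell, beside 14.4% and 12.7% of all genes, or 4 and 0 with the ISC groups fitted alone. The genes that rose in both were 6, namely Anxa1, Clu, Il33, Msln, Spp1 and Tnfrsf12a. Msln, mesothelin, was at 140 and 159 CPM in Sec-Cre organoids and 0.231 and 0.926 CPM in Sec-Cre ISCs, against 1.16 and 1.27 CPM in WT organoids and 0 counts in WT ISCs (organoids over ISCs, 7.58 ± 0.44, adjusted p = 8.21e-05). Anxa1, a phospholipid-binding annexin, was at 307 and 313 CPM in Sec-Cre organoids and 4.39 and 6.32 CPM in Sec-Cre ISCs, against 3.54 and 5.20 CPM in WT organoids and 0.228 and 1.04 CPM in WT ISCs. The calcium-binding S100a6 was at 763 and 475 CPM in Sec-Cre organoids and 40.2 and 51.6 CPM in Sec-Cre ISCs, against 53.0 and 50.3 CPM in WT organoids and 30.3 and 28.3 CPM in WT ISCs. For these genes the Sec-Cre organoids stand above the other 3 groups.

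YAP-TEAD targets and basement membrane genes were also higher in Sec-Cre organoids. Of 20 YAP-TEAD targets, 11 were higher and 0 lower in Sec-Cre organoids than in Sec-Cre ISCs (median 1.98), and 8 rose and 1 fell against WT organoids. In Sec-Cre against WT ISCs 1 rose and 1 fell, beside 14.4% and 12.7% of all genes. Amotl2, a junction protein that binds YAP, was at 74.6 and 92.2 CPM in Sec-Cre organoids and 7.40 and 10.1 CPM in Sec-Cre ISCs, against 15.3 and 14.1 CPM in WT organoids and 7.74 and 13.1 CPM in WT ISCs, so the Sec-Cre and WT ISCs overlap. The phosphatase Ptpn14 was at 95.02 and 99.3 CPM in Sec-Cre organoids and 0.231 and 2.11 CPM in Sec-Cre ISCs. The exchange factor Arhgef17 was at 111 and 127 CPM in Sec-Cre organoids and 0 and 1.44 CPM in Sec-Cre ISCs. Of 21 basement membrane and adhesion genes, 16 were higher and 2 lower in Sec-Cre organoids (median 2.61), and 10 rose and 0 fell against WT organoids. In Sec-Cre against WT ISCs 3 rose and 7 fell, beside the same shares of all genes, or 0 and 2 with the ISC groups fitted alone. Hspg2, perlecan, was at 205 and 206 CPM in Sec-Cre organoids and 30.5 and 32.6 CPM in Sec-Cre ISCs, against 76.8 and 63.2 CPM in WT organoids and 102 and 128 CPM in WT ISCs, the Sec-Cre organoids being highest and the Sec-Cre ISCs lowest. The laminin chain Lamb2 had the same order, at 77.8 and 68.5 CPM in Sec-Cre organoids and 2.31 and 0.741 CPM in Sec-Cre ISCs. Itga2, a collagen receptor subunit, was at 47.8 and 59.3 CPM in Sec-Cre organoids and 7.17 and 7.96 CPM in Sec-Cre ISCs, against 80.0 and 75.3 CPM in WT organoids and 64.7 and 67.1 CPM in WT ISCs, so Sec-Cre organoids lie below WT organoids for this gene.

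Genes of differentiated absorptive cells were among those that separated the Sec-Cre groups most. All 34 enterocyte genes were lower in Sec-Cre organoids than in Sec-Cre ISCs, with a median of -8.86, and the count was 34 without either Sec-Cre ISC library. Against WT organoids 31 fell and 0 rose in Sec-Cre organoids, and against WT ISCs 30 rose and 0 fell in Sec-Cre ISCs. Enpep, an aminopeptidase of the brush border (chromosome 3, 129269175 to 129332720), was at 2.15 and 1.66 CPM in Sec-Cre organoids and 840 and 959 CPM in Sec-Cre ISCs, against 114 and 130 CPM in WT organoids and 136 and 129 CPM in WT ISCs. The WT groups overlap, with Sec-Cre organoids below and Sec-Cre ISCs above them (-8.88 ± 0.30, adjusted p = 1.49e-05). Alpi was at 0.186 and 0.104 CPM in Sec-Cre organoids and 637 and 895 CPM in Sec-Cre ISCs, against 50.9 and 37.6 CPM in WT organoids and 14.0 and 17.8 CPM in WT ISCs (adjusted p = 1.69e-05). Mep1b, the beta subunit of the metalloprotease meprin, was at 4.16 and 4.01 CPM in Sec-Cre organoids and 602 and 592 CPM in Sec-Cre ISCs (adjusted p = 2.32e-05). Summed over the list, enterocyte genes held 825 and 962 CPM in Sec-Cre organoids and 66090 and 38310 CPM in Sec-Cre ISCs, against 8620 and 6996 CPM in WT organoids and 4573 and 4235 CPM in WT ISCs.

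Secretory lineage genes were also lower in Sec-Cre organoids than in Sec-Cre ISCs, where 23.9% of all genes were lower and 22.8% higher. WT organoids against WT ISCs had medians of -1.48 for goblet, -1.32 for Paneth, -1.83 for tuft and -0.24 for enteroendocrine genes. There 7 goblet genes were lower and 0 higher, beside 1.18% of all genes each way. Against own WT, 7.4% of all genes fell and 4.93% rose in organoids, and 12.7% fell and 14.4% rose in ISCs. For goblet cells 19 of 24 were lower and 0 higher, with a median of -3.84. The Sec-Cre ISC replicates differed in this list, with a median of 0.48 over the WT ISC mean in replicate 1 and -1.23 in replicate 2. Against own WT 10 fell and 0 rose in Sec-Cre organoids, and 5 fell and 0 rose in Sec-Cre ISCs (0 in either direction with the ISC groups fitted alone). Zg16, a lectin of goblet granules, was at 0.26 CPM and 0 counts in Sec-Cre organoids and 1391 and 1128 CPM in Sec-Cre ISCs, against 90.5 and 108 CPM in WT organoids and 1049 and 939 CPM in WT ISCs, so the Sec-Cre and WT ISCs stood close. For enteroendocrine cells 14 of 30 were lower and 1 higher (median -1.65), or 8 and 1 with only the Sec-Cre groups fitted. Against own WT, 14 were lower and 0 higher in Sec-Cre organoids and 10 lower and 2 higher in Sec-Cre ISCs, of which 6 were lower in both. With the ISC groups fitted alone 4 were lower and 0 higher. Chga, a granin of hormone granules, was at 1.45 and 2.63 CPM in Sec-Cre organoids and 62.0 and 70.8 CPM in Sec-Cre ISCs, against 88.2 and 101 CPM in WT organoids and 127 and 180 CPM in WT ISCs. For tuft cells 14 of 17 were lower and 0 higher (median -4.79), or 9 and 0 without Sec-Cre ISC replicate 2, and tuft genes also split the replicates of the ISC groups. Rgs13, a tuft cell signalling regulator, was at 0.668 and 1.04 CPM in Sec-Cre organoids and 22.4 and 80.5 CPM in Sec-Cre ISCs, against 14.7 and 11.8 CPM in WT organoids and 6.94 and 37.0 CPM in WT ISCs. For Paneth cells 16 of 21 were lower and 0 higher (median -7.42), and without Sec-Cre ISC replicate 1 the counts were 12 lower and 2 higher and the median was -2.29. With only the Sec-Cre groups fitted 3 were lower and 0 higher. Itln1, a lectin of Paneth and goblet cells, was at 347 and 369 CPM in Sec-Cre organoids and 101700 and 2700 CPM in Sec-Cre ISCs, against 1127 and 2254 CPM in WT organoids and 4376 and 3214 CPM in WT ISCs, so that Sec-Cre ISC replicate 2 lay below the WT ISCs.

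Proliferation genes were lower in Sec-Cre ISCs than in Sec-Cre organoids and in WT ISCs. Of 40 cell cycle genes 29 were higher and 0 lower in Sec-Cre organoids than in Sec-Cre ISCs (median 1.52), or 15 and 0 with only these groups fitted. Against own WT none was called in Sec-Cre organoids, where the median was 0.13, and 20 fell and 0 rose in Sec-Cre ISCs, where it was -1.36. The count that fell in ISCs was 9 with the ISC groups fitted alone and 23 without replicate 1. Mki67, a marker of cycling cells, was at 418 and 473 CPM in Sec-Cre organoids and 71.0 and 83.3 CPM in Sec-Cre ISCs, against 610 and 580 CPM in WT organoids and 566 and 586 CPM in WT ISCs (2.53 ± 0.22, adjusted p = 0.000169). Top2a, the replicative topoisomerase, was at 582 and 644 CPM in Sec-Cre organoids and 109 and 82.2 CPM in Sec-Cre ISCs, against 589 and 605 CPM in WT organoids and 444 and 389 CPM in WT ISCs. The spindle factor Tpx2 was at 117 and 127 CPM in Sec-Cre organoids and 23.4 and 31.5 CPM in Sec-Cre ISCs, against 97.2 to 110 CPM in the WT libraries. The Sec-Cre ISCs are below all other libraries for each of these. Ribosome biogenesis and Myc target genes had 16 of 30 higher and 0 lower (median 0.80), or 9 and 0 with only the Sec-Cre groups fitted, among them Utp20, a ribosomal RNA processing factor, at 123 and 128 CPM in Sec-Cre organoids and 17.1 and 19.0 CPM in Sec-Cre ISCs, against 89.6 to 112 CPM in the WT libraries.

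Oxidative phosphorylation and fatty acid oxidation genes were lower in Sec-Cre organoids than in Sec-Cre ISCs. Of 30 oxidative phosphorylation genes 27 were lower and 0 higher in Sec-Cre organoids than in Sec-Cre ISCs (median -2.35), and against own WT 5 fell and 0 rose in organoids, while 22 rose and 0 fell in ISCs (11 with the ISC groups fitted alone). Sdhb, a subunit of succinate dehydrogenase, was at 66.7 and 74.2 CPM in Sec-Cre organoids and 858 and 776 CPM in Sec-Cre ISCs, against 162 and 126 CPM in WT organoids and 172 and 183 CPM in WT ISCs. The Sec-Cre ISCs alone are far above the rest. Of 26 PPAR and fatty acid oxidation genes 22 were lower and 0 higher (median -2.07). Slc27a4, a fatty acid transporter, was at 42.0 and 30.1 CPM in Sec-Cre organoids and 420 and 398 CPM in Sec-Cre ISCs, against 60.03 to 69.9 CPM in the WT libraries. Cholesterol synthesis genes had the other sign, with 15 of 24 higher and 2 lower (median 1.12), or 6 and 1 with only the Sec-Cre groups fitted. The WT groups differed in the same direction, with 11 higher and 0 lower in organoids (median 1.40). Against own WT the median was -0.86 in Sec-Cre organoids and -0.61 in Sec-Cre ISCs. The interaction was called positive for 0 of these genes and negative for 3. Glycolysis and hypoxia genes had 7 higher and 4 lower of 24 (median 0.26), beside 22.8% and 23.9% of all genes. Against own WT, 11 of them fell and 0 rose in Sec-Cre organoids (median -1.18), and 8 rose and 1 fell in Sec-Cre ISCs (median 1.20, with 3 rising and 0 falling in the ISC groups fitted alone). In WT organoids against WT ISCs 14 were higher and 0 lower (median 2.13), and the interaction was called negative for 15 and positive for 0.

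**Figure D4:**
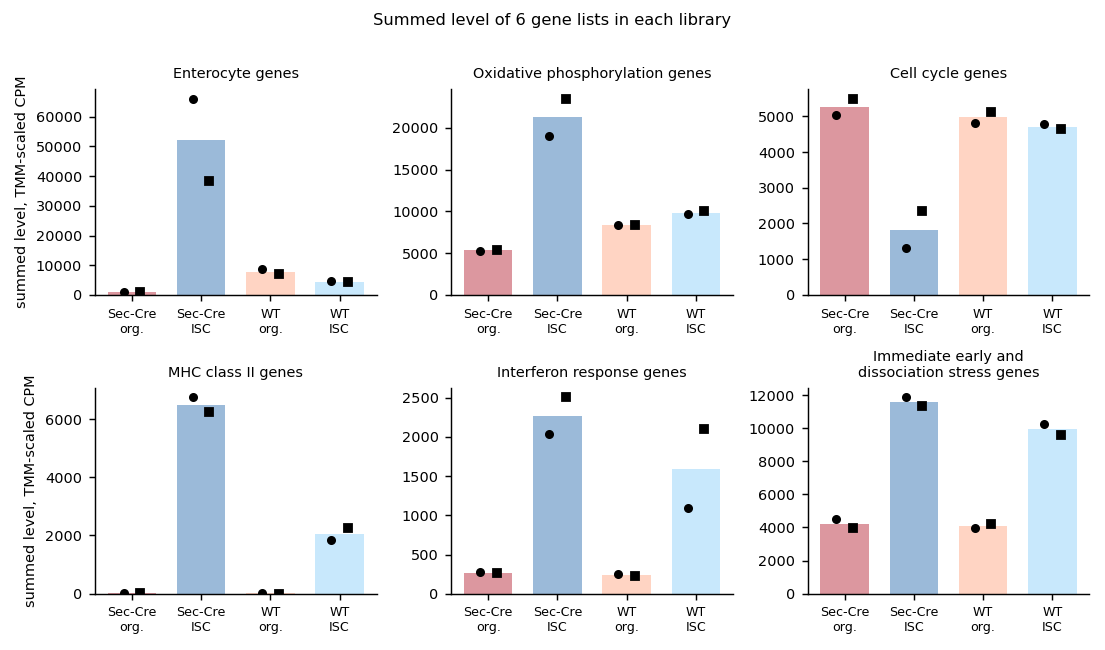
Summed level of 6 gene lists (y axes, TMM-scaled CPM) in the 4 groups, with bars at the mean of 2 libraries, circles for replicate 1 and squares for replicate 2. Enterocyte and oxidative phosphorylation genes are highest and cell cycle genes lowest in Sec-Cre ISCs, whereas MHC class II, interferon and immediate early genes are higher in both ISC groups than in both organoid groups.

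Other gene groups separated organoids from ISCs in both genotypes. All 7 tested MHC class II genes were lower in Sec-Cre organoids than in Sec-Cre ISCs (median -9.22), and all 7 were lower in WT organoids than in WT ISCs (median -9.21). H2-Aa, an MHC class II chain, was at 0.0742 and 0.207 CPM in Sec-Cre organoids and 768 and 677 CPM in Sec-Cre ISCs, against 0 counts in WT organoids and 186 and 233 CPM in WT ISCs. The list's sum in ISCs was 6744 and 6246 CPM in Sec-Cre against 1836 and 2250 CPM in WT. Interferon response genes had 25 of 32 lower and 0 higher between the Sec-Cre groups (median -3.46) and 16 lower and 0 higher between the WT groups (median -3.34). Psmb8, an immunoproteasome subunit, was at 1.30 and 2.52 CPM in Sec-Cre organoids and 447 and 420 CPM in Sec-Cre ISCs, against 2.84 and 1.02 CPM in WT organoids and 136 and 210 CPM in WT ISCs. Immediate early and dissociation stress genes had 19 of 28 lower and 3 higher between the Sec-Cre groups (median -2.45) and 18 lower and 0 higher between the WT groups (median -2.20). Fosb, an early response factor, was at 0.26 and 0.242 CPM in Sec-Cre organoids and 283 and 178 CPM in Sec-Cre ISCs, against 0.258 and 0.205 CPM in WT organoids and 450 and 281 CPM in WT ISCs, and its interaction was not called (adjusted p = 0.41).

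Genes induced by microbes or by xenobiotics were also lower in Sec-Cre organoids. Of 18 microbe-induced defence genes 15 were lower and 0 higher in Sec-Cre organoids than in Sec-Cre ISCs (median -5.32). The interaction was called negative for 9 and positive for 1, beside 13.7% and 10.9% of all genes. Reg3a, an antimicrobial lectin, was at 0.26 and 0.518 CPM in Sec-Cre organoids and 247 and 69.7 CPM in Sec-Cre ISCs, against 18.4 and 28.2 CPM in WT organoids and 10.1 and 11.7 CPM in WT ISCs (interaction adjusted p = 0.000662). Of 20 xenobiotic and aryl hydrocarbon response genes 14 were lower and 3 higher (median -2.79), and the interaction was called negative for 16 and positive for 1. Cyp3a13, a drug-metabolising cytochrome P450, was at 11.7 and 12.4 CPM in Sec-Cre organoids and 443 and 389 CPM in Sec-Cre ISCs, against 96.3 and 72.7 CPM in WT organoids and 24.3 and 23.5 CPM in WT ISCs. The WT groups stand in the reverse order of the Sec-Cre groups.

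Signalling lists are short, and the shares called in the Notch, EGF and unfolded protein response lists were near the 46.7% of all genes called in this comparison. Of 15 Notch pathway genes 7 were higher and 0 lower in Sec-Cre organoids than in Sec-Cre ISCs (median 1.55), and 8 fell and 0 rose in Sec-Cre against WT ISCs, or 4 and 0 with the ISC groups fitted alone. Jag1, a Notch ligand, was at 57.9 and 51.9 CPM in Sec-Cre organoids and 6.24 and 5.65 CPM in Sec-Cre ISCs, against 32.7 and 22.6 CPM in WT organoids and 25.6 and 20.3 CPM in WT ISCs. The receptor Notch2 had the same order, at 82.4 and 69.0 CPM in Sec-Cre organoids and 13.2 and 8.75 CPM in Sec-Cre ISCs, against 33.3 to 46.3 CPM in the WT libraries. BMP targets and antagonists had 1 higher and 4 lower of 15 between the Sec-Cre groups, beside 22.8% and 23.9% of all genes. These counts are not above the background. Against own WT, 4 rose and 0 fell in organoids, beside 4.93% and 7.4% of all genes. In ISCs 5 rose and 1 fell, beside 14.4% and 12.7%. Id1, a direct BMP target, was at 93.0 and 94.5 CPM in Sec-Cre organoids and 159 and 199 CPM in Sec-Cre ISCs, against 26.4 and 27.1 CPM in WT organoids and 59.6 and 67.3 CPM in WT ISCs. Id1, Id3, Smad7 and Bmp8b were called higher than WT in both materials. EGF ligands and receptors had 7 higher and 3 lower of 19, with the ligand Hbegf at 12.3 and 20.9 CPM in Sec-Cre organoids and 208 and 197 CPM in Sec-Cre ISCs, against 11.3 to 23.9 CPM in the WT libraries. Unfolded protein response genes had 2 higher and 11 lower of 23 (median -1.33), of which Herpud1 was at 52.4 and 41.6 CPM in Sec-Cre organoids and 757 and 460 CPM in Sec-Cre ISCs, against 75.9 and 102 CPM in WT organoids and 266 and 185 CPM in WT ISCs.

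Of 26 region and identity transcription factors of the gut 4 were higher and 11 lower in Sec-Cre organoids than in Sec-Cre ISCs, with a median of -0.88 that turned to 0.24 without Sec-Cre ISC replicate 2. In Sec-Cre against WT ISCs 4 rose and 5 fell, with a median of -0.07, beside 14.4% and 12.7% of all genes, so these counts are near the background. Hnf4g, a nuclear receptor of enterocytes, was at 26.6 and 33.4 CPM in Sec-Cre organoids and 492 and 444 CPM in Sec-Cre ISCs, against 105 and 111 CPM in WT organoids and 135 and 153 CPM in WT ISCs. Gata4, a factor of the proximal small intestine looked at after its values were seen, was at 25.9 and 53.7 CPM in Sec-Cre organoids and 82.3 and 176 CPM in Sec-Cre ISCs, against 76.5 and 78.8 CPM in WT organoids and 15.5 and 44.8 CPM in WT ISCs. Both Sec-Cre ISC libraries are above both WT ISC libraries (adjusted p = 0.0345), although both groups are labelled ileal. Over both Sec-Cre ISC libraries, the ileal bile acid binding protein Fabp6 had 15335 counts and Pdx1, a factor of the proximal intestine, had 343. The protocol shared by the samples names the duodenum, and the part of the region in the Gata4 difference was not tested. Gastric and foregut genes were mostly low, with 2 higher and 1 lower of 10, beside 22.8% and 23.9% of all genes. These shares do not exceed the background. Sox2, a foregut factor, was at 6.42 and 1.83 CPM in Sec-Cre organoids and had no count in the other 6 libraries. Krt5 had 159 counts in Sec-Cre organoids and 0 in every other group. Both genes passed the filter only through the Sec-Cre organoids, so their direction was fixed in advance.

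**Figure D5:**
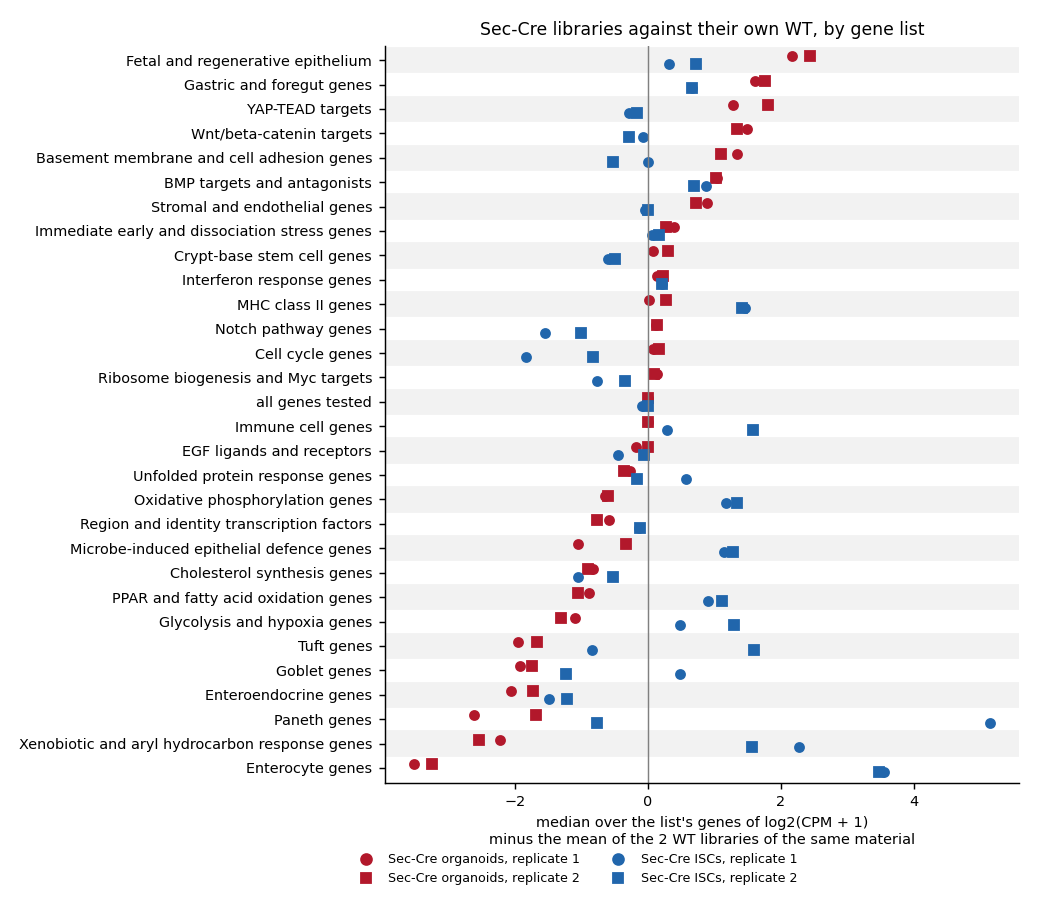
Median over each of the 29 gene lists and over all tested genes of log2(CPM + 1) in a Sec-Cre library minus the mean of the 2 WT libraries of the same material (x axis), with red for organoids, blue for ISCs, circles for replicate 1 and squares for replicate 2. Wnt targets lie at 1.49 and 1.34 in organoids and at -0.07 and -0.28 in ISCs, enterocyte genes lie at -3.52 and -3.24 in organoids and 3.56 and 3.48 in ISCs, and the Paneth, goblet and tuft lists split the Sec-Cre ISC replicates.

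Genes of cells outside the epithelium were few. Of 20 listed immune cell genes 15 passed the filter. Of these, 10 were lower and 0 higher in Sec-Cre organoids than in Sec-Cre ISCs (median -6.25, or -5.82 with genes of 0 to 3 counts at their bound or ratio). Members without counts in organoids passed the filter only through the ISC libraries. Their direction was fixed in advance, so the count is not a test of the list. Gzma, a granzyme of cytotoxic lymphocytes, had no count in organoids of either genotype and was at 16.9 and 22.9 CPM in Sec-Cre ISCs, against 0.74 CPM and 0 counts in WT ISCs. Ptprc, the CD45 antigen, was at 0.0742 and 0.276 CPM in Sec-Cre organoids and at 7.40 CPM or more in Sec-Cre ISCs, against 0.516 and 0.982 CPM in WT organoids and 3.13 and 9.16 CPM in WT ISCs, so the ISC groups overlap. Of 7 stromal and endothelial genes that passed the filter, out of 18 listed, 4 were higher and 1 lower. Pdgfra, Sparc and Cdh5 had 0, 3 and 6 counts over the Sec-Cre ISCs and at most 1 in either WT group. They passed only through the Sec-Cre organoids. Their direction was fixed in advance too, so this count is not a test of the list. Vim, vimentin, was at 520 and 240 CPM in Sec-Cre organoids and 1.62 and 2.27 CPM in Sec-Cre ISCs, against 9.15 and 10.9 CPM in WT organoids and 9.22 and 12.8 CPM in WT ISCs (7.51 ± 0.50, adjusted p = 7.02e-05). The 6 stromal and endothelial markers fixed for the check summed to 17.0 and 7.84 CPM in Sec-Cre organoids and to at most 0.925 CPM elsewhere, with Cdh5 at 13.8 and 6.39 CPM of the Sec-Cre organoid sums.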

How the data were processed

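Gene count tables from bulk RNA-seq of polyA RNA (a kit that does not mark strand) were used as deposited, with the unstranded read count per gene. The submitters' processing notes list STAR, mm10 and DESeq2 1.22.2. Which annotation the authors counted over is not given in the sources used here. The 4 summary lines of each table were left out. The 8 libraries of 4 groups were fitted together in edgeR 4.0.16 (R 4.3.3, TMM factors, filterByExpr with a minimum count of 10, quasi-likelihood test, Benjamini-Hochberg threshold 0.05), which left 14368 genes. The code was tested on simulated data. Levels are CPM of TMM-scaled library size, and fold changes are log2 with standard errors.

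Members and lists were chosen with earlier results of these data known. The genes named are Apc, Axin2, Lgr5 and Atoh1, the 10 largest rises and falls and the 5 largest interactions of each sign with a mean log2 CPM of at least 3 and a call that stands without Sec-Cre ISC replicate 1, the 3 members of smallest adjusted p of each list, and every Wnt target. A gene with 0 counts in a group was set against a floor of 3 counts over the group, and 1 to 3 counts were given a ratio with a 95% counting interval, both covering counting error only. Transcripts that share over 20% of their 31-base words with other genes were treated as uncertain. Alternatives included RLE factors, library totals, other filters, all 13 libraries, only the groups compared, each library left out, a replicate block, limma 3.58.1 and DESeq2 1.42.0. Some genes covered by these rules are not reported here.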

Additional observations from a re-analysis of the deposited data

Results flagged for a closer look

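The effect of the Sec-Cre genotype differed between organoids and ISCs, by the interaction term of the edgeR quasi-likelihood fit with Benjamini-Hochberg adjustment, for these genes of the Wnt list, each with a positive difference of effects, organoids minus ISCs: Prox1 (adjusted p = 0.00027), Tnfrsf19 (0.000369), Wnt6 (0.00133), Ccnd1 (0.00134), Apcdd1 (0.00252), Cd44 (0.0034), Axin2 (0.00416), Nkd1 (0.00434), Notum (0.00543), Rnf43 (0.00635), Ephb2 (0.00955), Wnt10a (0.0454), Kremen1 (0.0456) and Ephb3 (0.0498). The difference of effects was 3.72 on the log2 scale for Axin2, 7.12 for Prox1, 2.35 for Cd44 and 1.42 for Ephb2.

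Among the largest interactions outside that list, Irs1 (adjusted p = 0.000356), Spock2 (0.00113), Amotl1 (0.00287) and Enah (0.035) were positive by the same test. Apoa4 (6.45e-05), Cyp2c66 (0.000248), Cml5 (0.000382), Apoc3 (0.0015) and Fabp1 (0.0029) were negative. Cyp2c66 shares over 20% of its 31-base words with other genes and is uncertain.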

How the results depend on the processing

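The comparison of Sec-Cre organoids with Sec-Cre ISCs called 6707 genes, and 3653 to 8038 when a library was left out. Sec-Cre against WT organoids called 1772 genes, but 716 with library totals alone, 4121 with only the groups compared, 4257 with limma voom, 2786 with DESeq2 and 468 to 3976 without a library. Sec-Cre against WT ISCs called 3896, but 2034 with library totals, 1336 with only the groups compared and 1325 to 5992 without a library. WT organoids against WT ISCs called 339, but 59 with library totals, 520 without a filter, 589 with all 13 libraries, 1026 with only the groups compared, 1097 with limma voom, 1153 with DESeq2 and 40 to 1500 without a library. The interaction called 3538, but 1667 with library totals and 1478 to 6000 without a library. Library totals gave 357 higher and 1677 lower genes in Sec-Cre against WT ISCs, and 1211 positive and 456 negative interactions. They moved the median gene to 0.19 in Sec-Cre against WT organoids, -0.73 in Sec-Cre against WT ISCs and 0.97 for the interaction. None of the named genes and Wnt targets that passed the threshold between the Sec-Cre groups changed direction under the alternatives run. Of the Wnt targets that did not pass, Bambi was at 0.19, Mmp7 at 1.00 and Myc at -0.42 (log2) without Sec-Cre ISC replicate 1, and they were at -3.95, -4.74 and 0.38 without replicate 2. With library totals Sox9 was at 0.22 and Myc at 0.70. The cause was not tested. Same-numbered replicates did not deviate together (correlations from -0.0163 to 0.0729), so the samples were not treated as paired. Pairing is not excluded, because each group gives a single difference that holds all other variation between its libraries. With a replicate block the counts were 6206, 1475, 3440, 287 and 3104 in the order above.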
